A study of Rattus norvegicus with 18 samples.

Results

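The probe sets described here read peptide messengers known from smaller cell groups or fibres of the suprachiasmatic nucleus (SCN), and 1 growth factor. The SCN is the hypothalamic pacemaker of the daily rhythm. Members were all probe sets whose only gene symbol in the platform annotation was Penk, Cck, Tac1, Nts, Nmu, Gal or Tgfa. Of the 7 symbols, 6 were on the array, among 4736 named genes, through 7 of its 8799 probe sets, with 2 for Tac1 and 1 for each other gene. No probe set carried Nts, the neurotensin precursor, as its single symbol, and it is not described further. The SCN of adult male Long-Evans rats was dissected every 6 h after transfer from a light-dark cycle to constant darkness, and the RNA of 5 rats was pooled for each time point. The 8 time points analysed were 0, 6, 12 and 18 h (day 1) and 24, 30, 36 and 42 h (day 2), where 0 h and 24 h are circadian time (CT) 0, the start of the subjective day, and 12 h and 36 h are CT 12, its end. No genotype, drug or light pulse differed between the pools. Each pool was read on rat Affymetrix GeneChips in a technical repeat with 8 arrays and in a first run with 10, where the 24 h and the 36 h samples each had a pair of arrays, a and b.

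Neuropeptides are cut from larger precursors, stored in dense-core vesicles and released to act on G protein-coupled receptors. In the SCN, the transcripts best known to follow the clock encode vasopressin and other peptides of its 2 main regions, while enkephalin, substance P, cholecystokinin, neuromedin U and galanin are known from smaller cell groups or from fibres. TGF-alpha acts on the EGF receptor and, in the hamster, has been described as an SCN output signal that holds back locomotor activity.

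Values are probe set intensities as deposited, and pool values are geometric means in which both runs weigh equally. First-run values at 24 h and 36 h are geometric means of arrays a and b unless an array is named. Each phase had 2 pools of different rats. In the time contrasts, p-values measure the spread of the pool means around a fitted 24-h curve, part of which is array error. That spread also holds any shape the curve cannot follow and, except in the day contrast, any difference between the days. In the run contrast, p-values measure the spread of the differences between runs within pools. In dissected tissue, fewer cells that make a peptide and less RNA per cell cannot be told apart. Of the 8 SCN markers listed, 5 were on the array: Avp averaged 1732 and Sst 5541, but Vip, a defining SCN peptide, averaged only 49.0, Rorb 17.5 and Lhx1 14.9, all below the level filter, a geometric mean of 121. Median intensities were 107.9 to 127.6 in the technical repeat and 136.5 to 152.3 in the first run. Hybridisation controls stood apart on 3 first-run arrays (12 h, 18 h and 36 h b), at 619 to 1174 against 238 to 417 on the other 15.

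None of the 6 member probe sets above the level filter passed the test of a 24-h rhythm, and neither did any other probe set on the array (limma, 0 of 4370 at an adjusted p under 0.05, 0%). At an unadjusted p under 0.05 the count was also 0 of 6 members, against 278 of 4370 (6.36%). The fitted amplitude, the distance on the log2 scale from the fitted mean to the peak, was 0.06 to 0.28 among the 6, against a median of 0.16 over all tested probe sets. Nmu, Penk and Cck had the largest amplitudes, at 0.28 ± 0.10, 0.26 ± 0.10 and 0.26 ± 0.26 (SE, n = 8 pools), followed by Gal at 0.19 ± 0.09, Tgfa at 0.15 ± 0.11 and the brighter Tac1 probe set at 0.06 ± 0.10. Their fitted peaks fell at CT 10.1 for Nmu, CT 7.68 for Penk, CT 23.8 for Cck, CT 17.1 for Gal, CT 2.95 for Tgfa and CT 13.2 for Tac1. For scale, the same pools gave amplitudes of 0.64 ± 0.09 and 0.44 ± 0.14 for the 2 probe sets of the clock output gene Dbp, and 0.31 ± 0.10 and 0.15 ± 0.12 for those of Avp (SE, n = 8).

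The peaks and amplitudes were not stable between the runs for every member. The fitted peak of Penk lay at CT 10.2 in the technical repeat alone and CT 5.44 in the first run alone, that of Gal at CT 14.2 and CT 18.7, and that of Tac1 at CT 21.3 and CT 12.6. Tgfa had an amplitude of 0.32 with a peak of CT 2.80 in the repeat, against 0.020 with a peak of CT 12.5 in the first run. For Cck the amplitude ranged over 0.20 to 0.58 when each pool was left out, and the peak moved to CT 12.2 without the 36 h pool. A test of whether the curve differed between the runs called 0 of 6 members (limma adjusted p = 0.999 for each), which with 8 pools does not show that the curves were alike.

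**Figure D1:**
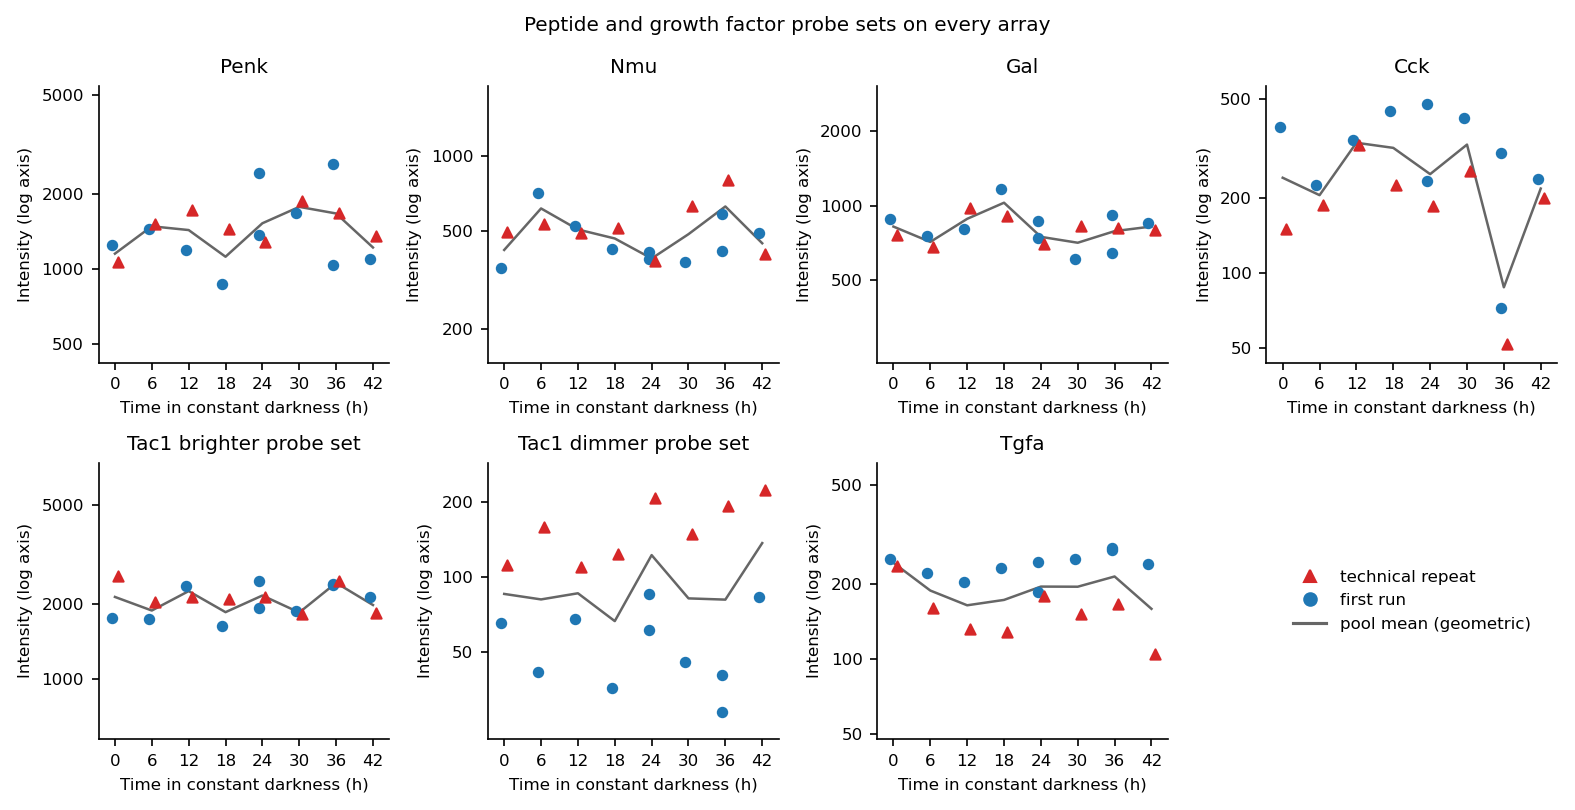
Intensity (log axis) of the 7 member probe sets against time in constant darkness (h), with triangles for the technical repeat, circles for the first run and a line for the geometric pool means. Most members stay within a narrow band, Cck drops to 51.7 on the repeat array at 36 h, and the technical repeat lies above the first run for the dimmer Tac1 probe set and below it for Cck and Tgfa.

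Penk encodes proenkephalin, the precursor of Met- and Leu-enkephalin, which act on delta and mu opioid receptors. In the technical repeat its intensity was 1064, 1519, 1717, 1443, 1276, 1873, 1684 and 1353 from 0 to 42 h. In the first run it was 1244, 1447, 1194, 866, 1821, 1681, 1654 and 1096 at the same hours. The middle of the subjective day was high and the middle of the subjective night low: the pool means at CT 6 were 1482 and 1774, against 1118 and 1218 at CT 18, with no overlap. Non-overlap in this direction was found for 14.1% of the tested probe sets. The log2 difference, CT 6 over CT 18, was 0.47 ± 0.20 (SE, 95% interval 0.03 to 0.92, with 2 pools at each phase), a fold of 1.39. Limma's unadjusted p was 0.0394, a level that 4.26% of the probe sets passed, and the adjusted p was 0.968.

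The Penk difference had the same sign on both days in both runs, but not the same size. It was 0.07 on day 1 and 0.47 on day 2 in the technical repeat, and 0.74 and 0.62 in the first run. In both runs the 2 CT 6 values lay above the 2 CT 18 values, a pattern met by 2.52% of the tested probe sets. Without the 3 arrays with high hybridisation controls, which leaves the 18 h pool with its repeat array alone, the difference was 0.29 ± 0.22 (SE). Markers of striatum and forebrain, where Penk is abundant, summed to 2704 and 2684 at CT 6, against 2797 and 2577 at CT 18. Those ranges overlap, but most of the sum is Pdyn. Of the 8 genes of that list 6 were on the array, and their log2 differences, CT 6 over CT 18, were 0.60 for Drd2, 0.23 for Adora2a, 0.02 for Drd1, -0.02 for Pdyn and -0.06 for Rgs9. Drd2 and Adora2a are the list's markers of the striatal neurons that make enkephalin, and Drd2 averaged 40.1, below the level filter. Slc17a7, a marker of cortical glutamatergic neurons, lay at 12.1 to 13.9 in all pools, near the floor of 12.1. Markers of choroid plexus and ependyma summed to 4507 and 4625 at CT 6, against 4088 and 4314 at CT 18. Most of that sum is Igf2, which averaged 3656. Among them Ttr differed by 2.04 on the log2 scale (limma adjusted p of its rhythm 0.321), a gene chosen after its values were seen. The rest of the list did not share that size: Igf2 differed by 0.08, Kl by -0.20 and Igfbp2 by -0.23. The part of these tissues in the Penk difference was not tested.

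Penk was also higher on day 2 than on day 1 at all 4 phases in the pool means. The differences at CT 0, 6, 12 and 18 were 0.41, 0.26, 0.22 and 0.12 on the log2 scale. In the technical repeat they were 0.26, 0.30, -0.03 and -0.09, and in the first run 0.55, 0.22, 0.47 and 0.34. The geometric means over both runs were 1531 on day 2 and 1285 on day 1. Of the tested probe sets, 5.72% were higher on day 2 at 4 of 4 phases, and the difference of 0.25 ± 0.13 (SE, 4 pools per day) had a limma adjusted p of 0.997. It depended on single arrays: without arrays b it was 0.12, and without the 3 arrays with high hybridisation controls 0.01. Array b read 2424 at 24 h and 2632 at 36 h, while array a read 1368 and 1039. The 36 h pair thus lay 2.53-fold apart, wider than the 1.59-fold range of the 8 pool means, and 12.5% of the tested probe sets were at least as far apart on that pair.

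Tac1 encodes the precursor of substance P and neurokinin A, tachykinins that act on neurokinin receptors. Its 2 probe sets gave different pictures. On the brighter one the technical repeat read 2605, 2041, 2149, 2110, 2150, 1823, 2481 and 1840 from 0 to 42 h. The first run read 1761, 1747, 2378, 1640, 2191, 1887, 2401 and 2147. This was the flattest member: its pool means spanned a 1.32-fold range, and 13.4% of the tested probe sets had a smaller spread between pools. The CT 12 pools, at 2260 and 2441, lay just above the CT 0 pools, at 2142 and 2170, a difference of 0.12 ± 0.20 (SE, 2 pools per phase). Non-overlap in that direction held for 23.2% of the probe sets, and the difference had the opposite sign in the repeat alone (-0.04).

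The dimmer Tac1 probe set averaged 90.2, below the level filter, and was read from the fit without that filter. It gave 112, 159, 110, 124, 207, 148, 194 and 225 in the technical repeat, and 65.4, 41.5, 67.4, 35.6, 72.4, 45.3, 33.9 and 83.3 in the first run. All 8 repeat values exceeded all 8 first-run values. The repeat was 2.92-fold higher (log2 difference 1.55 ± 0.20, SE, n = 8 pools, limma adjusted p = 0.000999), whereas the brighter probe set differed between runs by 0.09 ± 0.12 (adjusted p = 0.535). Over the 8 pools the 2 probe sets correlated at r = 0.16, with -0.32 within the repeat and 0.32 within the first run. No level or time course of Tac1 is therefore given from the dimmer probe set.

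Cck encodes cholecystokinin, a gut and brain peptide whose brain receptor is Cckbr. The technical repeat read 151, 188, 327, 227, 187, 257, 51.7 and 200 from 0 to 42 h, and the first run 389, 226, 343, 450, 335, 421, 149 and 240. The 36 h pool stood apart with a mean of 87.8, while the other 7 pools lay between 206 and 335. Among the tested probe sets, 98.4% had a smaller spread between pools than Cck. The other CT 12 pool, at 12 h, had the highest mean of all, so both extremes of Cck belonged to the same phase on different days.

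The low 36 h value of Cck came from array b, at 72.7, and from the repeat array, at 51.7, but not from array a of that hour, which read 306. Only 3.96% of the tested probe sets were as far apart on that pair as this 0.238-fold ratio of b over a, and array b is among the 3 with high hybridisation controls. For Cck, CT 12 minus CT 0 was -1.51 on day 2 and 0.47 on day 1, with -0.52 ± 0.52 (SE, 2 pools per phase) over both days. Without the 36 h pool it was 0.39 ± 0.31. Pan-neuronal markers summed to 4106 in the 36 h pool, within the range of 3152 to 4541 of the other pools. The part of other tissue in the 36 h value was not tested.

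Nmu encodes neuromedin U, a peptide made by SCN neurons of the rat that acts on the receptors Nmur1 and Nmur2. In the technical repeat its intensity was 494, 530, 487, 513, 376, 628, 795 and 404 from 0 to 42 h, and in the first run 353, 709, 523, 420, 396, 372, 491 and 489. The pools at CT 12 had 505 and 625, against 418 and 386 at CT 0. The groups did not overlap, as for 23.2% of the tested probe sets in this direction, and the log2 difference, CT 12 over CT 0, was 0.48 ± 0.19 (SE, 95% interval 0.05 to 0.91, with 2 pools at each phase). This 1.40-fold difference had a limma unadjusted p of 0.0308, a level passed by 8.67% of the probe sets, and an adjusted p of 0.559.

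The days and runs differed in where this difference came from. In the repeat it was -0.02 on day 1 and 1.08 on day 2, and in the first run 0.57 on day 1 and 0.31 on day 2. The 36 h arrays read 795 in the repeat and 412 and 584 in the first run, while the 24 h arrays lay close together at 376, 382 and 409. For the whole 24-h curve, limma's adjusted p was 0.746. The exact permutation test over the 8 pools gave p = 0.0349, the share of arrangements with an amplitude at least as large. This is for 1 of 7 member probe sets tested in that way and without adjustment for their number. SCN markers summed to 9932 and 6441 at CT 12, against 7162 and 6617 at CT 0, but most of the sum is Sst. Their log2 differences, CT 12 over CT 0, were 0.60 for Avp, 0.28 for Rorb, 0.11 for Sst, 0.03 for Lhx1 and -0.96 for Vip. Rorb, Lhx1 and Vip lay below the level filter, and Avp was used above as a scale for a rhythm. The part of these markers in the Nmu difference was not tested.

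The promoters of Nmu and Tac1 are shown because both hold the E-box CACGTG, the element bound by the clock's activators, while the fitted amplitudes of these genes were the largest and the smallest of the members. The sequences are from RefSeq, build GRCr8, and run from 250 bases before to 50 after the annotated start. They were in the promoter table for 5 of the 7 symbols, Tac1, Nts, Nmu, Gal and Tgfa. Capitals mark matches on either strand to 6 motifs: the E-box CACGTG, the cAMP response element TGACGTCA, its core TGACG, the D-box TTATGTAA, the AP-1 site TGACTCA and the ROR core AGGTCA. The Nmu window is chr14:32198693-32198992 on the plus strand, and the Tac1 window is chr4:36645333-36645632 on the plus strand.
Nmu: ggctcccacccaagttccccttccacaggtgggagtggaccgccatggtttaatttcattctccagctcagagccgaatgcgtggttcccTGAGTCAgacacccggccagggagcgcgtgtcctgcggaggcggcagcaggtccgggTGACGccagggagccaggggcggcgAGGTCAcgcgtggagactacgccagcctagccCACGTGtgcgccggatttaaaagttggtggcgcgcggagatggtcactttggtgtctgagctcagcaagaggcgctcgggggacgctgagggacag
Tac1: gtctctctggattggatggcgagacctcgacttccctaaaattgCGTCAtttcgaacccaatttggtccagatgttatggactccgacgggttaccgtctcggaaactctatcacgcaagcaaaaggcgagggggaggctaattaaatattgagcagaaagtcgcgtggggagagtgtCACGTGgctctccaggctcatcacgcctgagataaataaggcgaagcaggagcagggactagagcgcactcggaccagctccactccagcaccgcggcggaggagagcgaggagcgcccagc

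The E-box began 46 bases before the start in Nmu and 72 before it in Tac1. It was found in 2 of the 5 member promoters and in 6.42% of 33469 rat promoters of the same length. Nmu also held an AP-1 site 160 bases, the core TGACG 103 bases and a ROR core 78 bases before its start. The core TGACG was found in 4 of the 5 members, all but Tgfa, and in 21.2% of all promoters. No member window held the D-box or the full cAMP response element, which 0.893% and 1.83% of all promoters held, and the Tgfa window, at 76.7% G and C, held none of the 6 motifs. A match is only a match of letters. Nothing measured here bears on binding, and a window without a match says nothing of the factor.

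**Figure D2:**
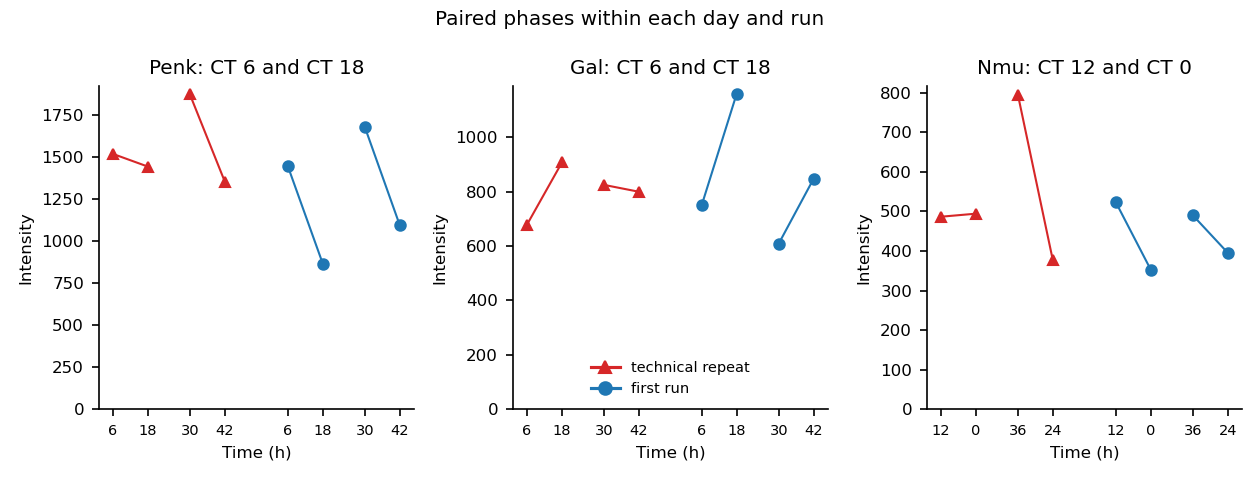
Intensity of Penk and Gal at CT 6 and CT 18, and of Nmu at CT 12 and CT 0, joined within each day, with the technical repeat (triangles) left of the first run (circles) and time in h on the x axis. Penk falls from left to right in all 4 pairs, Gal does the opposite in 3 of 4 and Nmu has its widest drop on day 2 of the repeat (795 at 36 h, 376 at 24 h).

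Gal encodes galanin, a peptide that mostly inhibits neurons through the receptors Galr1, Galr2 and Galr3. The technical repeat read 764, 679, 976, 908, 700, 826, 812 and 800 from 0 to 42 h. The first run read 888, 752, 803, 1162, 801, 609, 768 and 848. The CT 6 pools, at 715 and 709, lay below the CT 18 pools, at 1027 and 824, the reverse of Penk. The log2 difference was -0.37 ± 0.18 (SE, 95% interval -0.77 to 0.03, with 2 pools at each phase), with a limma unadjusted p of 0.0662 and an adjusted p of 0.968. Non-overlap in this direction held for 17.3% of the tested probe sets.

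By day, the Gal difference was -0.42 and 0.04 in the repeat and -0.63 and -0.48 in the first run, so 3 of the 4 pairs had Gal lower at CT 6. Without the 18 h pool it was -0.24. The exact permutation test of the 24-h curve gave p = 0.0571 (share of arrangements with an amplitude at least as large). Markers of neighbouring hypothalamic neurons, an area where galanin cells are also found, summed to 9153 and 7167 at CT 6, against 9914 and 8362 at CT 18. On each day this sum was thus lower at CT 6 as well, but over both days the ranges overlap. Its largest part is Oxt, which averaged 3034 and differed by -0.26, CT 6 over CT 18, on the log2 scale. Of the 10 tested markers 3 were higher at CT 6, among them Pomc by 1.01. The part of these neurons in the Gal difference was not tested.

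Tgfa encodes transforming growth factor alpha, a membrane-bound ligand of the EGF receptor that is released by shedding. It read 236, 161, 132, 128, 179, 151, 166 and 105 from 0 to 42 h in the technical repeat, and 251, 220, 204, 233, 213, 252, 277 and 240 in the first run. The highest pool mean was 243 at 0 h and the lowest 159 at 42 h. The runs gave CT 12 minus CT 0 the same sign on day 1 and opposite signs on day 2: it was -0.84 on day 1 and -0.11 on day 2 in the repeat, against -0.30 and 0.38 in the first run. The difference over all pools was -0.22 ± 0.21 (SE, 2 pools per phase), and the geometric means of the days were equal at 190 and 190.

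**Figure D3:**
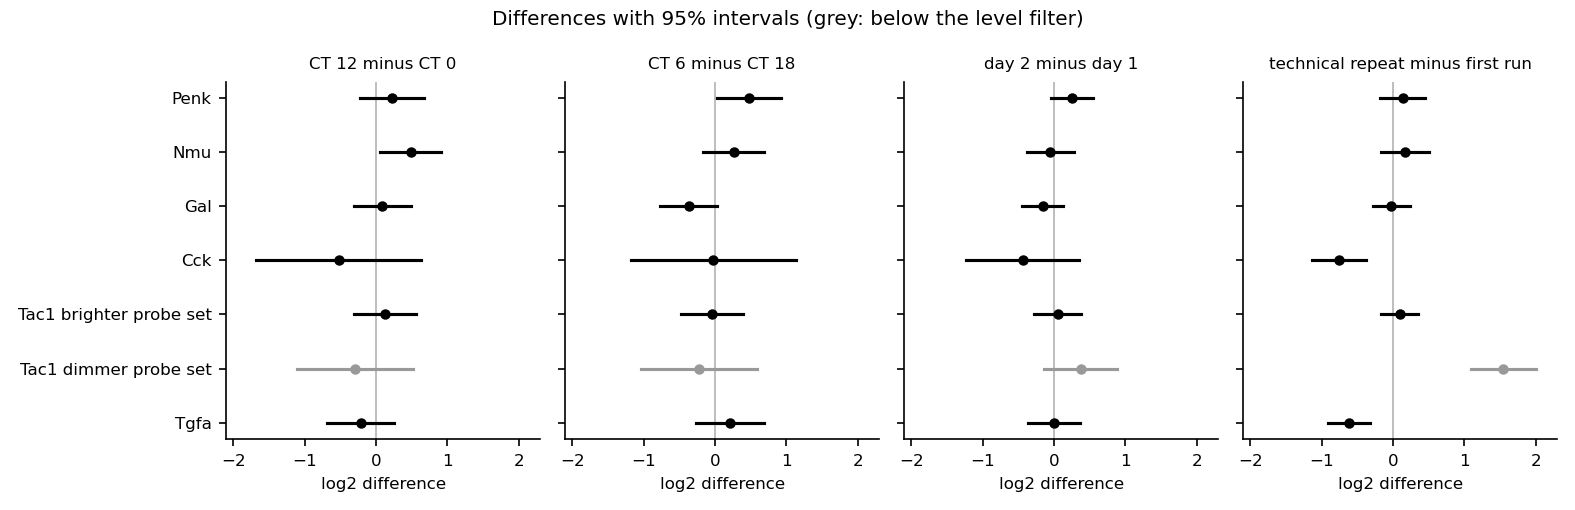
Log2 differences of the 7 member probe sets (rows) with 95% intervals from limma, for CT 12 minus CT 0, CT 6 minus CT 18, day 2 minus day 1 and technical repeat minus first run. Among the time contrasts only the intervals of Penk for CT 6 minus CT 18 (0.03 to 0.92) and of Nmu for CT 12 minus CT 0 (0.05 to 0.91) do not hold 0, and in the run contrast those of Cck, Tgfa and the dimmer Tac1 probe set do not.

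Counted over the contrasts, no member passed an adjusted p under 0.05 for CT 12 minus CT 0 (limma, 0 of 6, background 0%), for CT 6 minus CT 18 (0 of 6, background 0.0229%) or for day 2 minus day 1 (0 of 6, background 0%). At an unadjusted p under 0.05 there was 1 of 6 for CT 12 minus CT 0 (Nmu, background 8.67%), 1 of 6 for CT 6 minus CT 18 (Penk, background 4.26%) and 0 of 6 for day 2 minus day 1 (background 3.96%). These shares rest on single probe sets. The pools of the phases did not overlap in 4 of 6 members between CT 6 and CT 18 (Penk, Nmu and Tgfa higher, Gal lower), against 31.4% of the tested probe sets in either direction, and in 2 of 6 between CT 12 and CT 0 (Nmu and Tac1 higher), against 44.8%. For Nmu the difference between CT 6 and CT 18 was 0.26 ± 0.19 and for Tgfa it was 0.21 ± 0.21 (SE, with 2 pools at each phase). The 95% intervals of the day difference reached from -0.04 to 0.54 for Penk, from -1.23 to 0.35 for Cck and from -0.45 to 0.13 for Gal. Day differences anywhere within those limits are compatible with the 4 pools per day.

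The order of neighbouring pools could be read only in part. From low to high, Penk ran 18, 0, 42, 12, 6, 24, 36 and 30 h, and Nmu 24, 0, 42, 18, 30, 12, 6 and 36 h. None of the 7 steps between neighbours exceeded the spread expected from the runs in Penk, Nmu, Tgfa or the brighter Tac1 probe set. In Gal, 1 step did, that between the 12 h and 18 h pools, and in Cck, 1 step did, that between the 36 h pool and the next. The SD of the pool means was 0.25 for Penk, against 0.20 expected from the differences between runs alone, 0.25 against 0.23 for Nmu, 0.18 against 0.14 for Gal, 0.20 against 0.18 for Tgfa and 0.63 against 0.27 for Cck. Over all tested probe sets the medians were 0.23 and 0.21.

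Among the members, Cck ran opposite to the brighter Tac1 probe set over the 8 pools (r = -0.59, with -0.60 in the technical repeat and -0.53 in the first run) and to Nmu (-0.56, with -0.58 and -0.60). The 36 h pool had the lowest mean of Cck (87.8) and the highest of the brighter Tac1 probe set (2441) and of Nmu (625). Both runs read that pool, and r without it was not computed. Penk and Gal had the lowest pooled r (-0.73), but its sign turned between the runs, at 0.43 in the repeat and -0.80 in the first run. These pairs share arrays and scaling. Searched over 3588 tested probe sets of other named genes, the pattern most like Penk was that of Flt1, a VEGF receptor of vessel cells (r = 0.94 over 8 pools, 0.65 in the repeat and 0.81 in the first run), followed by Arpc5l and Cul2 at 0.92 and 0.91. The genes most like Nmu were Slc12a5, a neuronal chloride transporter (0.97), Lgals3bp (0.94) and Ehd4 (0.93). These are the best of many probe sets over 8 points, and several were weak within a run: Slc12a5 reached 0.28 in the repeat and 0.17 in the first run, and Lgals3bp 0.52 and 0.0049. Those most like Cck were Uqcc2, Etfa and Nipbl (0.96, 0.94 and 0.94). For Gal they were Slc1a2, Ppil2 and Pgk1 (0.92 each), of which Ppil2 stood at 0.19 and Pgk1 at -0.0061 in the repeat. They were, for Tgfa Kcnh1, Tpm3 and Smc3 (0.93, 0.93 and 0.92), and for Tac1 Mpp3, Ilkap and Scg2 (0.95, 0.92 and 0.91), with Ilkap at 0.020 in the repeat.

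Cck and Tgfa differed between the runs. Cck fell to a geometric mean of 179 in the technical repeat, against 302 in the first run, and was lower in 8 of 8 pools, a pattern found in 17.8% of the tested probe sets. Tgfa fell to 153 in the repeat, against 235 in the first run, also in 8 of 8 pools. The log2 differences were -0.75 ± 0.17 for Cck (limma adjusted p = 0.00406) and -0.62 ± 0.13 for Tgfa (adjusted p = 0.00279; SE, n = 8 pools each). The exact sign-flip test gave p = 0.00781 (two-sided) for both, the smallest that 8 pools allow. Thus 2 of 6 members passed, both as lower in the repeat, against 48.4% of all tested probe sets in either direction and 27.5% as lower. The members' share was near that background.

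Penk, Nmu, Gal and the brighter Tac1 probe set did not pass in that contrast, with differences of 0.13, 0.17, -0.02 and 0.09. Scaling each array to its median in place of its trimmed mean moved the median run difference of all tested probe sets to 0.24, against -0.06 as deposited, and the share of called probe sets that were higher in the repeat to 73.9%, against 43.2%. Under that scaling Penk (0.43), Nmu (0.47) and the brighter Tac1 probe set (0.39) passed as higher in the repeat, Gal turned to 0.27, and Cck (-0.46, adjusted p = 0.0586) and Tgfa (-0.32, adjusted p = 0.0641) no longer passed. Relative to the median of all probe sets, Cck stood at -0.69 and Tgfa at -0.56 under both scalings, which by construction differ only by a constant on each array, and at -0.61 and -0.42 with quantile normalization. With that normalization both passed as lower in the repeat, Cck at -0.58 (limma adjusted p = 0.0181) and Tgfa at -0.38 (adjusted p = 0.0305). Since pool means take both runs equally, a shift common to a whole run leaves the time contrasts as they are.

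**Figure D4:**
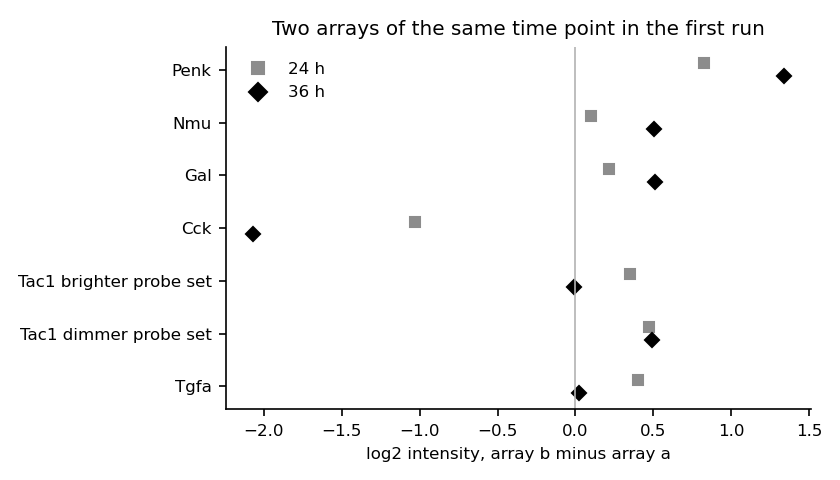
Log2 intensity of array b minus array a for the 7 member probe sets (rows), with squares for 24 h and diamonds for 36 h, both in the first run. Penk is higher on array b at both hours (1.77-fold and 2.53-fold), Cck is lower at both, and the other members lie within 1.42-fold.

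The genes around the members were read in 5 lists. Of 20 receptors of the member peptides and of Tgfa, 16 were on the array and only 5 above the level filter: Oprk1, Cckbr, Ntsr2, Tacr1 and Tacr2. None passed the test of a rhythm (0 of 5). The amplitude was 0.33 ± 0.11 for Oprk1, the kappa opioid receptor, which peaked in the fit at CT 20.7, 0.19 ± 0.09 for Cckbr, the brain cholecystokinin receptor (fitted peak CT 13.4), and 0.18 ± 0.10 for Ntsr2, a neurotensin receptor (fitted peak CT 22.8; SE, n = 8). The median amplitude of the list was 0.19. Other receptors of the members, such as Oprm1 (95.2), Galr1 (67.3) and Egfr (47.9), lay below the filter, while Cckbr averaged 260 and Tacr1 252. Nmur1 and Nmur2 were not among the 16.

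All 14 measured genes of peptide processing and dense-core vesicles were above the filter, and 0 of 14 passed the rhythm test, with a median amplitude of 0.16. The amplitude was 0.27 ± 0.10 (SE, n = 8; fitted peak CT 4.02) for Qpct, which forms the N-terminal pyroglutamate of peptides such as neurotensin. It was 0.20 ± 0.09 (fitted peak CT 6.85) for Pam, which amidates peptides including substance P, cholecystokinin, neuromedin U and galanin, and 0.21 ± 0.12 (fitted peak CT 9.98) for the convertase Pcsk5. In the run contrast 2 of these 14 passed as higher in the repeat and 3 as lower. Of the other opioid and tachykinin precursors, 3 of 4 were tested and 0 passed: the amplitudes were 0.52 ± 0.17 for Pomc (fitted peak CT 6.85, unadjusted p = 0.0364, limma adjusted p = 0.746), 0.13 ± 0.09 for Pnoc and 0.04 ± 0.08 for Pdyn, the dynorphin precursor. Among 9 measured peptidases 5 were tested and 0 passed, with Anpep at 0.18 ± 0.11, Nln at 0.15 ± 0.13 and Prep at 0.10 ± 0.12, and among 7 measured EGF family ligands and sheddases only Nrg2 was tested, at 0.28 ± 0.15.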

How the data were processed

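RNA of 5 rats per time point, pooled per the labels, was read on 18 arrays. The authors deposited 1 linear intensity per probe set, scaled per array (2% trimmed means of 500.7 to 500.8); the summary algorithm is not given in the sources used here. Intensities under the 10th percentile (12.1) were set to it and log2 values taken. Arrays a and b were averaged, assuming 1 pool, then the runs. The 59 control probe sets were left out, and 4370 probe sets (2820 genes) with a mean above the median were tested. Limma 3.58.1 in R 4.3.3 fitted a cosine and sine of 24 h to the 8 pool means (5 residual and 5.13 prior degrees of freedom), a day term, and the 8 differences between runs, with Benjamini-Hochberg adjustment over all tested probe sets at 0.05. Exact tests used the 2520 phase arrangements of the pools (smallest p = 0.00317) and 256 sign flips. Fits were tested on simulated data. Repeat and first-run arrays of an hour share a pool, so the run is paired within pools. All member probe sets were described, and up to 3 genes per list by the smallest rhythm p. Members, lists and motifs were chosen with earlier results of these data known. Alternatives are given in the closing section. The number of arrays limits the precision.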

Additional observations from a re-analysis of the deposited data

Results flagged for a closer look

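2 values stood far from the others of their group, both of Cck at 36 h, in 21 such comparisons of member values; chance gives about 1 in 20. The first is the intensity of 51.7 on the technical repeat array, while the other 7 repeat arrays lay between 150.9 and 327, so that the gap to the nearest was 0.58 of the whole range. The second is the pool mean of 87.8, while the other 7 pools lay between 206 and 335, with a gap of 0.64 of the range. The repeat array is part of that pool mean.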

How the results depend on the processing

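Of 606 alternative values of the members, 561 kept their side of the threshold and, outside the rhythm, their direction. The amplitude of the rhythm has no sign, and its fitted peak, which moved for several members as given above, was not part of this count. Another 40 values changed sign, 3 became significant and 2 ceased to be. The limma adjusted p of the rhythm lay at 0.668 to 0.984 for Penk, 0.587 to 0.984 for Nmu and 0.691 to 0.984 for Gal. Run as a replicate block, with a correlation of 0.03 within pools, gave Penk 0.26 ± 0.10 (limma adjusted p = 0.668), changed no member's call and called 1 probe set rhythmic in place of 0. The rhythm count was 2 with the filter at the 75th percentile, 2 under trended and robust limma, and 1 in the repeat alone. For CT 12 minus CT 0 it was 1 and 1 with those first settings and 2 in the repeat alone, against 0. For CT 6 minus CT 18 the count of 1 went to 0 without the level filter, in the first run or the repeat alone, without arrays a, without the 3 arrays with high hybridisation controls (a choice made after seeing the data), and 0 to 0 when each pool was left out; the day count was 0 to 1 then, with 1 without the 0 h pool. The run count was 1210 at the 75th percentile, where fewer probe sets were tested, against 2114. Unadjusted counts for the rhythm ran from 141 of 2185 tested probe sets (filter at the 75th percentile) to 569 of 8740 (no level filter). These ends thus differ in the number tested. With 4370 tested, the count was 165 without the 0 h pool, 167 in the first run alone and 334 with run as a replicate block, against 278. Signs changed only for differences that had not passed. Quantile normalization gave Cck 0.0040 for CT 6 minus CT 18 and Tgfa 0.021 for the day, median scaling 0.032 and 0.017, with Tac1 0.015 for CT 6 minus CT 18 and Gal 0.27 for the run, and a pseudocount Tgfa 0.0015 for the day. The first run alone gave -0.10 for Penk, -0.10 for Gal and 0.040 for Tgfa in CT 12 minus CT 0, -0.0049 for Tgfa in CT 6 minus CT 18 and 0.11 for its day difference. The repeat alone gave Tac1 -0.036 for CT 12 minus CT 0 and -0.11 for the day, Cck 0.045 for CT 6 minus CT 18 and Nmu 0.053 for the day. Without arrays a, Tgfa had 0.026 for the day and Penk -0.00062 for the run. Without arrays b, Gal had 0.021 for the run. Without the 3 arrays, Cck had 0.23 for CT 6 minus CT 18, Tgfa 0.18 for the day and Gal 0.022 for the run. Leaving out each pool gave -0.14 to 0.12 for the Tgfa day difference, -0.16 to 0.036 for that of Nmu, -0.027 to 0.13 for that of Tac1 and -0.80 to 0.024 for that of Cck. It gave -0.091 to 0.023 for the Gal run difference, -0.43 to 0.34 for Cck and -0.18 to 0.070 for Tac1 in CT 6 minus CT 18, and -1.15 to 0.39 for Cck and -0.019 to 0.23 for Tac1 in CT 12 minus CT 0. The causes were not tested. With 1 pool per hour and 2 pools per phase, small differences cannot be resolved, and Vip and the dimmer Tac1 probe set lay below the level filter.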
